A study of Mus musculus with 8 samples.

Results

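The Rbfox proteins (Rbfox1, Rbfox2 and Rbfox3) and the Celf proteins (Celf1 to Celf6) are 9 RNA-binding regulators of splicing. Their genes were chosen by name: a cluster was taken where the deposited table of Argonaute clusters named one of them, as a whole name, in its 3′ UTR, CDS, 5′ UTR, intron or antisense column. This gave 804 of the table's 70142 clusters, or 1.15%, and 20298 of its 1834586 reads, or 1.11%. All 9 genes were present, among 10728 genes that the table names. A cluster is a stretch of the genome covered by crosslinked reads, and 790 of the 804 lay on the sense strand of their gene. Of these, 5 also named a second gene: 3 intron clusters of Rbfox1 named 1700123O21Rik and 2 of Celf2 named 5031426D15Rik.

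The clusters come from HITS-CLIP of mouse forebrain, in which RNA is crosslinked to protein with ultraviolet light, pulled down with an antibody and sequenced. The M2 FLAG antibody pulled down a Flag-tagged Ago2 protein, the Argonaute that carries miRNAs. The 3 control libraries came from mice with the Rosa-Stopfl/fl-Flag-Ago2 allele alone, in which a stop cassette keeps the tagged protein off. The 5 Flag-Ago2 libraries came from mice with this allele and Camk2a-cre, in which Cre from the Camk2a promoter removes the stop in forebrain neurons. These libraries are labelled 1, 2a, 2b, 3a and 3b, so each a and b library share a replicate number. All mice were 8 to 14 weeks old. Each pull-down used part of 1 forebrain, and the libraries belong to 3 experiments. The table holds 1 read count per cluster for the whole study and 0 columns for a single library or group, so nothing below compares Flag-Ago2 with control mice, no value has a replicate, and no test was made. Intervals are 95% intervals of counting error only: Wilson intervals for shares and exact Poisson intervals for counts per length.

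Rbfox proteins bind the word GCATG in introns and 3′ UTRs, and switch neighbouring exons in or out of the mRNA. Rbfox3 is the antigen known as NeuN, the common marker of mature neurons. Celf proteins bind GU-rich RNA, regulating splicing in the nucleus and the decay and translation of mRNAs in the cytoplasm; Celf1 and Celf2 are found in many tissues and Celf3 to Celf6 mainly in the nervous system. Argonaute proteins find their targets through a miRNA's seed, bases 2 to 8 from its 5′ end, most often in 3′ UTRs.

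Among the 36 miRNA families examined, the seed that matched most of the 9 genes was that of miR-9, a neuronal miRNA. A 6-base match to its bases 2 to 7 lay in 3′ UTR clusters of 6 of the 9. Of the 4706 protein-coding genes with a 3′ UTR cluster, 11.5% had such a match, and of the 569 with at least 4 such clusters 29.5% did. Over the 3′ UTR clusters of the 9 genes the rate was 0.998 matches per kb, and its interval (0.401 to 2.06) holds the 0.416 of all 3′ UTR clusters. The only Celf4 and Celf5 clusters with a match are also named as CDS. Without clusters so named, the rate was 1.63 times that of all 3′ UTR clusters, against 2.40 times with them. The mature sequence is shown with bases 2 to 8 in capitals, followed by the stretches from Rbfox1, Rbfox2, Celf1 and Celf2 in which the match ran to 7 bases, with the matched bases in capitals. Here and below, stretches are 5′ to 3′ on the gene's strand, from GENCODE M21 transcripts on mm10, and mature miRNAs are from RefSeq for GRCm38.
miR-9-5p: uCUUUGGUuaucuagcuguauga
Rbfox1 (plus strand, chr16:7411174-7411202): cccctccacccCCAAAGAacaagatctgc
Rbfox2 (minus strand, chr15:77083668-77083696): cagacagaattACCAAAGtggatctggtg
Celf1 (plus strand, chr2:91017757-91017785): gcagaagcagaACCAAAGgtggctgtggg
Celf2 (minus strand, chr2:6540604-6540632): agtgagggaagACCAAAGtgtggtttctt
In Rbfox2, Celf1 and Celf2 the match covered bases 2 to 8 of the miRNA, and in Rbfox1 it covered bases 2 to 7 followed by an A. All lay in annotated 3′ UTR exons.

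Celf1 held 5 of the 8 matches of the longest kind, 8 bases made of a match to bases 2 to 8 followed by an A. They are shown because 4 of them lay in 1 cluster of 26 reads, and the fifth, to miR-23, in the Celf1 3′ UTR cluster with the second highest count, 81 reads. Capitals mark the seed in each miRNA and the 8 matched bases in each stretch.
miR-23a-3p: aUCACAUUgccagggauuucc
Celf1, miR-23 match (chr2:91018172-91018201): ggacttggaagAATGTGAAtagaggaggag
miR-125b-5p: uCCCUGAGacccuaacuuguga
Celf1, miR-125 match (chr2:91017722-91017751): tggctgctctgCTCAGGGAgtacagggggc
miR-148a-3p: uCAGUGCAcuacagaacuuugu
Celf1, miR-148/miR-152 match (chr2:91017865-91017894): gaggccatcggTGCACTGAgtggcaatata
miR-218-5p: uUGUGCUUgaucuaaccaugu
Celf1, miR-218 match (chr2:91017913-91017942): ccctaggtgacAAGCACAAtaaatactaca
miR-30a-5p: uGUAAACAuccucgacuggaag
Celf1, miR-30 match (chr2:91017942-91017971): agtcttcacacTGTTTACAgctctgggcac

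The other 3 matches of 8 bases were in Celf2 and Rbfox2. The deepest 3′ UTR cluster of Celf2, with 65 reads, held overlapping 8-base matches to miR-33 and miR-129 that run into a tract of A, and a GU-rich stretch that matched miR-23 over 7 bases. Rbfox2 matched miR-153 over 8 bases in a cluster of 20 reads.
miR-33-5p: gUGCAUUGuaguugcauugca
Celf2, miR-33 match (minus strand, chr2:6543417-6543446): ttagcctctcaCAATGCAAaaaaaaaaaaa
miR-129-5p: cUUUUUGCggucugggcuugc
Celf2, miR-129 match (minus strand, chr2:6543413-6543442): cctctcacaatGCAAAAAAaaaaaaaaaaa
Celf2, miR-23 match (minus strand, chr2:6543456-6543484): atgtgtgtgtgAATGTGAtagccctgaga
miR-153-3p: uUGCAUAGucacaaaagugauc
Rbfox2, miR-153 match (minus strand, chr15:77080883-77080912): aggatgtgagcCTATGCAAgaagagcatag

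Most clusters of the 9 genes were nevertheless intronic, and most belonged to 2 genes. Rbfox1 had 346 clusters with 8539 reads and Celf2 had 264 with 6634 reads, together 75.9% of the 804. Rbfox3 followed with 72 clusters (1790 reads), Celf4 with 57 (1546 reads), Rbfox2 with 28 (692 reads) and Celf1 with 19 (616 reads). Celf5 had 9 clusters (219 reads), Celf3 had 7 (238 reads) and Celf6 had 2 (24 reads). These numbers are not set against each other, since the genes differ widely in length and the table holds no measure of RNA level. The median cluster of the 9 genes held 20 reads, against 18 over the table, whose minimum is 10. Of the 804, 9 (1.12%) held 100 or more reads, against 963 clusters (1.37%) in the table. By region the share was 4.88% in 3′ UTRs (2 clusters) against 2.69%, 11.8% in coding sequence (2 clusters) against 2.30%, and 0.689% in introns (5 clusters) against 0.798%.

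Each sense cluster was given 1 region per gene: 3′ UTR where the table named it there, otherwise CDS, then 5′ UTR, then intron. Introns held 91.9% of the 790 sense clusters (interval 89.8 to 93.6), against 58.6% (58.2 to 59.0) of the 55842 clusters on the sense strand of any gene. The 3′ UTRs held 41 (5.19%, against 16.6%), the coding sequences 17 (2.15%, against 23.2%) and the 5′ UTRs 6 (0.759%, against 1.60%). Of the 21924 protein-coding genes annotated, 28.0% had an intron cluster, 21.5% a 3′ UTR cluster, 26.9% a CDS cluster, 3.29% a 5′ UTR cluster and 35.7% any exonic cluster. Of the 9 genes, 9 had an intron cluster, 8 a 3′ UTR cluster, 7 a CDS cluster, 5 a 5′ UTR cluster and 9 an exonic one. Genes with no RNA in forebrain are among the 21924, so these counts say little about the 9 genes themselves.

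In each family there were intron shares above and below the table's 58.6%, though the interval of Rbfox2 holds that value. Among Rbfox genes, introns held 99.1% of Rbfox1 clusters (interval 97.4 to 99.7) and 94.4% of Rbfox3 clusters (86.4 to 97.8), but 51.9% of Rbfox2 clusters (34.0 to 69.3). Among Celf genes, the share was 95.8% for Celf2 (92.7 to 97.6) and 85.5% for Celf4 (73.8 to 92.4), but 26.3% for Celf1 (11.8 to 48.8) and 22.2% for Celf5 (6.32 to 54.7). Celf3 and Celf6 stood at 50% each, on 6 and 2 clusters. These shares rest on giving exons priority. A cluster was also counted as intronic wherever the table named it so, which held for 77.2% of the 55842. The share was then 70.4% for Rbfox2 (interval 51.5 to 84.1), 68.4% for Celf1 (46.0 to 84.6) and 55.6% for Celf5 (26.7 to 81.1). These intervals hold the 77.2%. The share was 6 of 6 clusters for Celf3, and between 90.9% and 99.4% for Rbfox1, Rbfox3, Celf2 and Celf4. By priority, the interval of Celf1 lies wholly below those of Rbfox1, Rbfox3, Celf2 and Celf4, while those of Rbfox2, Celf1 and Celf5 overlap.

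**Figure D1:**
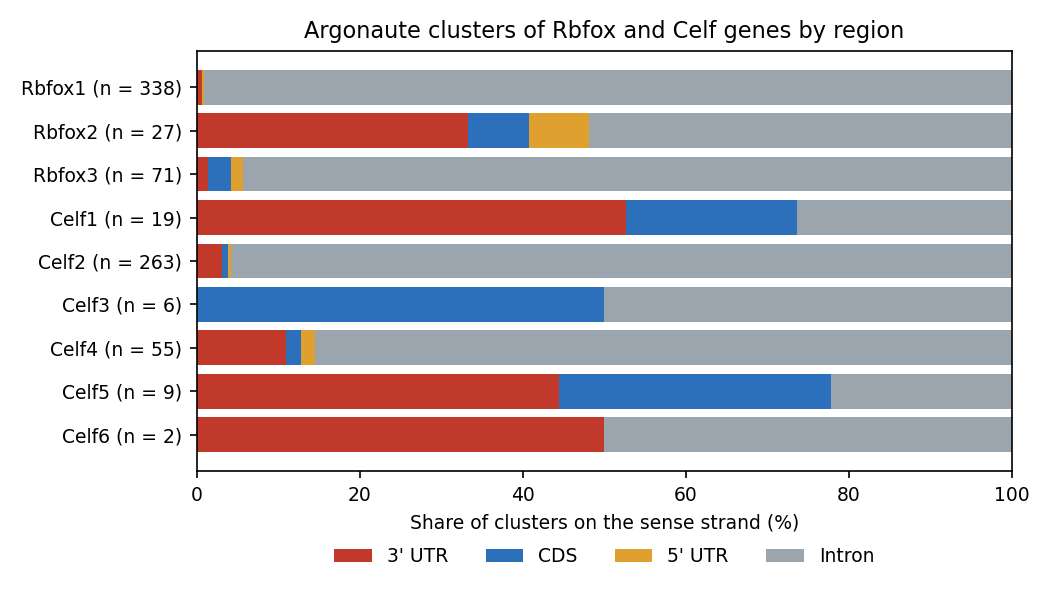
Share of sense clusters in each region (horizontal axis, %) for each of the 9 genes, with the number of sense clusters in brackets. Introns fill most of the bars of Rbfox1, Rbfox3, Celf2 and Celf4, while exonic regions (red, blue and yellow), which have priority over introns, take 48.1% of the clusters of Rbfox2, 73.7% of those of Celf1 and 77.8% of those of Celf5.

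Per length of intron, the long genes of both families still carried many clusters. Celf2 had 252 intron clusters in 944 kb, or 26.7 per 100 kb (interval 23.5 to 30.2), and ranked 4 of the 2257 protein-coding genes with at least 100 kb of intron. Rbfox1 had 335 in 1522 kb, or 22.0 per 100 kb (19.7 to 24.5), and ranked 13. Celf4 had 17.5 per 100 kb (12.9 to 23.3, rank 29) and Rbfox3 had 16.1 (12.5 to 20.5, rank 39). Rbfox2 stood lower, with 14 clusters in 220 kb, or 6.37 per 100 kb (3.48 to 10.7, rank 415). The 2257 genes together had 3.78 clusters per 100 kb, their median was 1.78 and the highest, Phactr1, had 33.7. In this order each gene's interval overlaps the next one's except that of Rbfox2, which lies below that of Rbfox3. More clusters on a gene and more of its unspliced RNA cannot be told apart here, since no RNA level was measured.

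**Figure D2:**
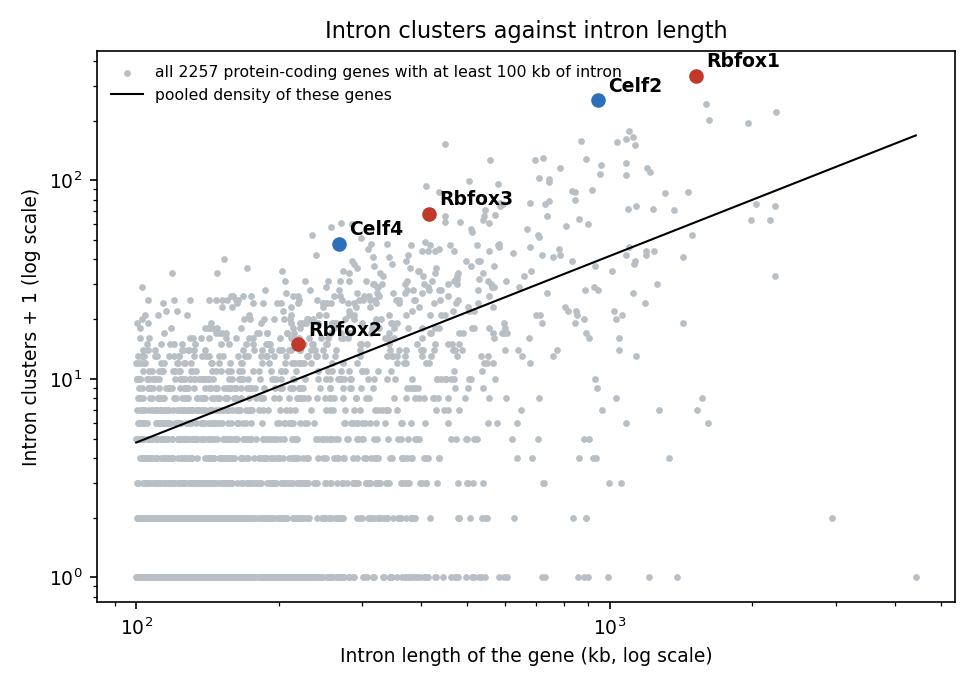
Intron clusters plus 1 (vertical, log scale) against intron length in kb (horizontal, log scale) for the 2257 protein-coding genes with at least 100 kb of intron. Rbfox genes are red, Celf genes blue, and the line is the pooled density of 3.78 clusters per 100 kb. Rbfox1 and Celf2 have the highest counts of all points, and Rbfox2 lies nearest to the line of the 5 labelled genes.

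The other 4 Celf genes have under 100 kb of intron and were not ranked. Celf1 had 5 intron clusters (7.08 per 100 kb, interval 2.30 to 16.5), Celf3 had 3 in 8.43 kb (35.6, 7.34 to 104), Celf5 had 2 (11.9, 1.44 to 43.0) and Celf6 had 1 (3.88, 0.0983 to 21.6). Their intervals are too wide to order them.

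Inside the 2 longest genes the intron clusters were uneven. The introns of Rbfox1 were counted as the stretches between annotated exons, numbered from the gene's 5′ end. The 7th stretch (chr16:6809249-7069845, 261 kb) held 100 clusters, or 38.4 per 100 kb (interval 31.2 to 46.7). The 3rd (chr16:5895701-6173604), of nearly the same length at 278 kb, held 31, or 11.2 per 100 kb (7.58 to 15.8). The 6th, 321 kb long, held 80 clusters (24.9 per 100 kb). In Celf2, the 9th stretch (chr2:6884997-6962378, 77.4 kb) held 35 clusters, or 45.2 per 100 kb (31.5 to 62.9). The 8th beside it (chr2:6962415-7077264, 115 kb) held 14, or 12.2 per 100 kb (6.66 to 20.5). These stretches were picked with their values known, out of 21 in Rbfox1 and 26 in Celf2, so their intervals do not test a difference. No Celf2 intron cluster lay in the first 100 kb after the annotated gene start, and 51 lay between 600 and 700 kb. In Rbfox1 the fullest 100 kb, from 1100 to 1200 kb, held 42 clusters and the emptiest full window, from 200 to 300 kb, held 7.

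The 4 genes with most clusters were also cut into 4 parts of equal length. From the 5′ end, the parts of Rbfox1 held 50, 100, 112 and 73 intron clusters and those of Celf2 held 35, 59, 94 and 64, so that part 3 was the fullest in both. Those of Rbfox3 held 18, 21, 11 and 17 and those of Celf4 held 12, 18, 9 and 8, with part 2 the fullest.

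**Figure D3:**
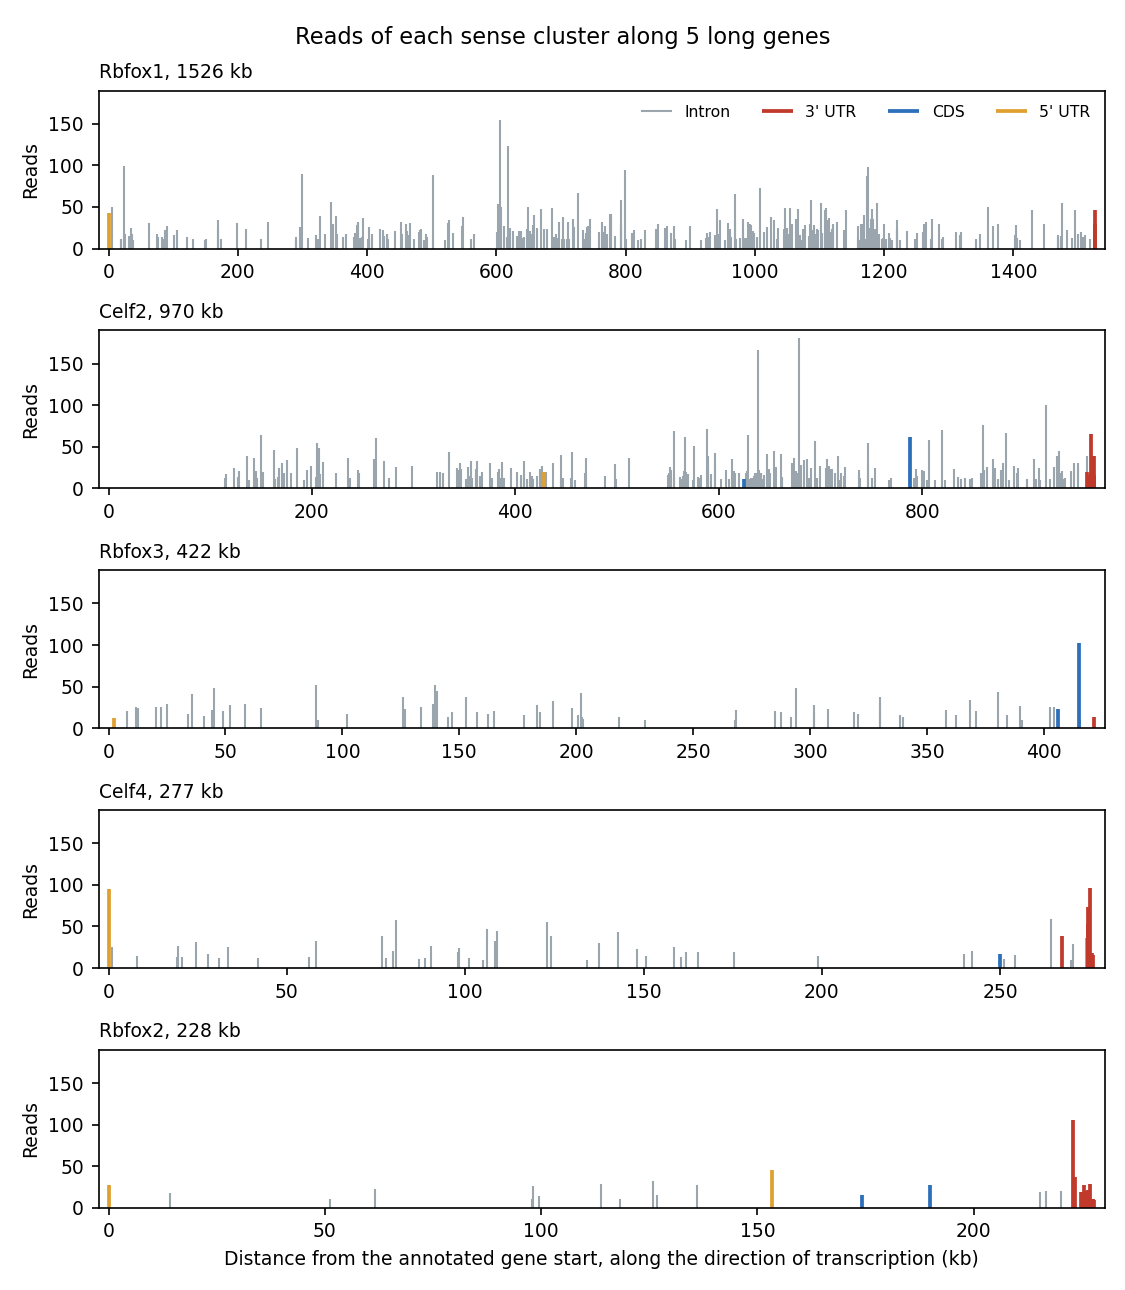
Reads of each sense cluster (vertical lines) against its distance in kb from the annotated gene start, along the direction of transcription, for the 5 genes with over 100 kb of intron; colours mark the region. Clusters are spread through the introns of Rbfox1 and Celf2, with 51 in the window of 600 to 700 kb of Celf2, while the tallest lines of Rbfox2 and Celf4, of 106 and 96 reads, stand near the 3′ end; a Celf4 line of 95 reads stands at the gene start.

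The distance of intron clusters from exons differed between the genes. Of 726, 33 (4.55%, interval 3.25 to 6.31) were within 500 bases of an annotated exon of the same gene. The share was 17.2% over all 32517 intron clusters with an annotated gene and 8.07% over the 22336 in genes with at least 100 kb of intron. The median distance to an exon was 53005 bases in Rbfox1, 20671 in Celf4, 20647 in Celf2 and 12481 in Rbfox3, against 14429 in all genes with at least 100 kb of intron. The share within 500 bases was 0.896% in Rbfox1 (3 of 335, interval 0.305 to 2.60) and 5.16% in Celf2 (13 of 252, 3.04 to 8.62), which together hold most of the clusters. It was 7.46% in Rbfox3, 10.6% in Celf4 (5 of 47) and 14.3% in Rbfox2 (2 of 14, median distance 7802 bases). The intervals of Celf2 and of these 3 genes hold the 8.07%, and that of Rbfox1 lies below it. In the shorter genes, 1 of 5 Celf1 clusters, 3 of 3 Celf3 clusters, 1 of 2 Celf5 clusters and 0 of 1 Celf6 clusters were that near. A distance cannot exceed the length of the intron, so genes with longer introns can show larger ones.

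The deepest intron clusters were in the same 2 genes. In Celf2 a cluster of 181 reads (chr2:6830002-6830325, minus strand) and one of 166 reads (chr2:6870724-6870938) lay 40.4 kb apart in the 13th stretch between exons, and another, of 100 reads, was at chr2:6587357-6587657. In Rbfox1 clusters of 154 reads (chr16:6490365-6490543, plus strand) and 123 reads (chr16:6504110-6504231) lay 13.6 kb apart in the 6th stretch. The highest intron cluster of Rbfox3 held 52 reads, of Celf4 59, of Rbfox2 32, of Celf5 47, of Celf1 41, of Celf3 23 and of Celf6 14. Of the 9 clusters with 100 or more reads, 5 were these intron clusters of Celf2 and Rbfox1 and 4 were exonic.

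In 3′ UTRs, Celf4 had the most clusters per length. It had 6 clusters in 2.21 kb of annotated 3′ UTR, with 96, 73, 53, 38, 18 and 16 reads, or 2.71 per kb (interval 0.995 to 5.90), and ranked 31 of 11788 genes with at least 1 kb of 3′ UTR. The Celf4 cluster of 38 reads is also named as CDS and intron, and that of 73 reads as intron, so this rank rests on giving 3′ UTRs priority. Rbfox2 had 9 clusters (1.74 per kb, 0.795 to 3.30, rank 238) and Celf1 had 10 (1.63 per kb, 0.782 to 3.00, rank 305). Celf5 had 4 (1.29 per kb), Rbfox1 had 2 (1.17 per kb) and Celf2 had 8 (1.02 per kb). Celf6 and Rbfox3 had 1 each, of 10 and 14 reads, and Celf3 had none in 1.08 kb, which allows up to 3.42 per kb. All 11788 genes together had 0.242 per kb and their median was 0. The 3923 of them with a 3′ UTR cluster had a median of 0.609 per kb, above Celf6 at 0.444 and Rbfox3 at 0.353. Between neighbours in the order of the 9 genes the intervals overlap. More clusters on a gene and more of its RNA cannot be told apart in 3′ UTRs or coding sequence either.

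The deepest 3′ UTR clusters held 106 reads in Rbfox2 (chr15:77083870-77084212, which also reaches the coding sequence), 103 in Celf1 (chr2:91014692-91014795), 65 in Celf2 (chr2:6543412-6543516) and 54 in Celf5 (chr10:81462184-81462374). That Celf5 cluster is also named as CDS and intron. Of the 10 Celf1 clusters, 6, with the deepest among them, are named by the table as intron too, that is, they lie in a 3′ UTR of some annotated transcripts and in an intron of others. The deeper of the Rbfox1 clusters, with 46 reads (chr16:7411842-7411981), lies beyond the gene end annotated in GENCODE M21, at position 7411526, so the 3′ UTR length used for Rbfox1 is too short.

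Coding sequences held 17 clusters, and the deepest were in Celf3 and Rbfox3. Celf3 had 1 of over 100 reads (chr3:94485068-94485434) with 2 others of 12 and 10 reads, and Rbfox3 had 1 of 102 reads (chr11:118496316-118496425) and 1 of 23. Celf1 had 4, of 95, 28, 25 and 23 reads, or 2.59 per kb of coding sequence (interval 0.707 to 6.64, rank 146 of 13057 genes). Celf5 had 3, of 25, 19 and 19 reads (2.49 per kb). Rbfox2 and Celf2 had 2 each, up to 27 and 62 reads, and Celf4 had 1 of 17. Rbfox1 and Celf6 had none, which allows up to 2.74 and 2.56 per kb. The pooled value of the 13057 genes was 0.378 per kb, and the median of the 4839 with a CDS cluster was 0.779.

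The 5′ UTRs held 6 clusters, in 5 genes. The deepest was that of Celf4, 95 reads over the annotated start of the gene, with a cluster of 10 reads on the opposite strand inside the same stretch. Rbfox2 had 2 of 46 and 27 reads, Rbfox1 1 of 43, Celf2 1 of 20 and Rbfox3 1 of 12.

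Few of the clusters were antisense. Of the 804, 14 (1.74%, interval 1.04 to 2.90) were named only as antisense, against 4.24% (4.08 to 4.40) over all protein-coding genes. Of these, 8 were in Rbfox1, with 10 to 39 reads, 2 in Celf4 and 1 each in Rbfox2, Rbfox3, Celf2 and Celf3. Rbfox1 thus had 8 antisense against 338 sense clusters.

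Seed matches were counted in the 3′ UTR clusters of the 9 genes. Over the 41 clusters, 7.01 kb in all, the 36 miRNA families examined had 111 matches of 6 bases, and 34 clusters held at least 1. The families are abundant in brain, except miR-145 and miR-133, which were taken from other tissues. The families with most matches were miR-148/miR-152 with 8, miR-129 and miR-9 with 7 each, and miR-125, miR-23 and miR-15/miR-16/miR-195 with 6 each. Per kb, miR-148/miR-152 stood at 1.14 (interval 0.493 to 2.25) against 0.508 in all 3′ UTR clusters, miR-9 at 0.998 (0.401 to 2.06) against 0.416, and miR-129 at 0.998 (0.401 to 2.06) against 0.424. In each case the interval holds the value of all clusters, as it does for all 36 families. The families were chosen with earlier results known, so the order among them is a description.

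The matches of Rbfox2 and Celf1 were the most numerous, 30 in each. Rbfox2 had 3 each for miR-124, miR-153 and miR-148/miR-152. Celf1 had 4 each for miR-15/miR-16/miR-195 and miR-148/miR-152 and 3 for miR-181. Celf2 had 22, led by miR-23 with 3 and followed by miR-125 and miR-101 with 2 each. Celf5 had 12, with miR-138 at 2, and Rbfox1 had 7, with miR-27 and miR-129 at 2 each. Celf4 had 5, each for another family, among them miR-9, miR-132/miR-212 and miR-24. Celf6 had 4, among them miR-27, miR-103/miR-107 and miR-15/miR-16/miR-195, and Rbfox3 had 1, for miR-29. Matches to miR-124, a neuronal miRNA, were in Rbfox2 and Celf1 only, 5 in all. For miR-128 there were 2, or 0.285 per kb (interval 0.0345 to 1.03) against 0.899, and for miR-26, miR-99/100 and miR-145 there were 0, which for each allows up to 0.526 per kb.

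**Figure D4:**
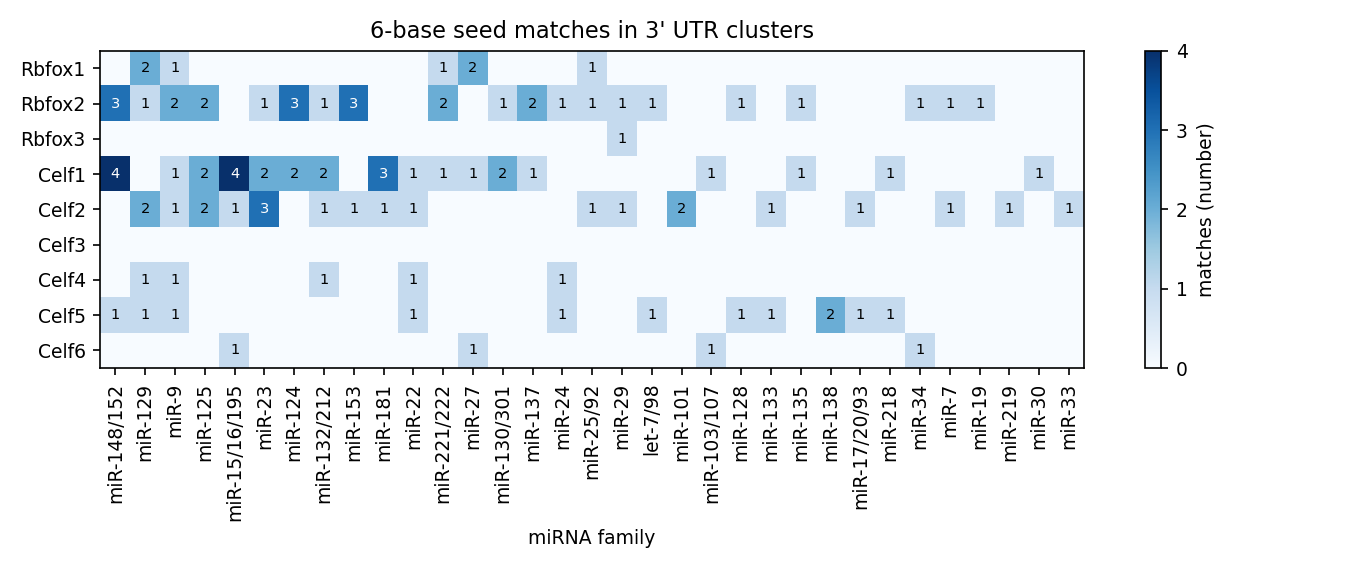
Number of 6-base seed matches (colour and figure in each cell) in the 3′ UTR clusters of each of the 9 genes (rows) for the miRNA families with at least 1 match (columns, ordered by their total). Celf1 and Rbfox2 fill the most cells with 30 matches each, the row of Celf3 is empty because it has no 3′ UTR cluster, and miR-9 has a match in 6 rows.

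Longer matches could be read in the 35 of the 41 clusters that lie inside 1 annotated exon. They held 47 matches of 7 or 8 bases: 14 in Celf1, 12 each in Celf2 and Rbfox2, 4 in Celf5, 2 each in Rbfox1 and Celf6, and 1 in Celf4. Of the 47, 8 were 8-base matches, 24 covered bases 2 to 8 and 15 covered bases 2 to 7 followed by an A. Of the 47, 44 lay wholly inside their cluster. The other 3, overlapping matches to miR-19, miR-130/miR-301 and miR-148/miR-152 in Rbfox2, ran across the edge of a cluster of 21 reads. The stretches printed above are the 8-base matches, the miR-9 matches of 7 bases, and a miR-23 match of Celf2. Apart from those in the deepest Celf2 cluster, they were chosen after their values were seen. The deepest cluster of Celf1, 103 reads, held a 6-base match to miR-181 and no other.

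In introns, the interval held the value of all intron clusters for 32 of the 36 families. The 726 clusters, 105 kb in all, held 1229 matches. It lay above that value for miR-25/92, with 30 matches or 0.284 per kb (0.192 to 0.406) against 0.149. It lay below for miR-128, with 78 matches or 0.740 per kb (0.585 to 0.923) against 0.960, for miR-27, with 67 or 0.635 per kb (0.492 to 0.807) against 0.858, and for miR-145, with 39 or 0.370 per kb (0.263 to 0.505) against 0.604. Of the 30 miR-25/92 matches, 13 were in Celf2, 12 in Rbfox1, 2 each in Rbfox3 and Celf4 and 1 in Rbfox2. These 4 intervals were picked out of 36 with no adjustment, and the clusters of 1 gene share its base composition. The matches to miR-128 (ACTGTG) and miR-27 (CTGTGA) overlap, so a stretch ACTGTGA counts for both, and the values of these families are not independent.

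**Figure D5:**
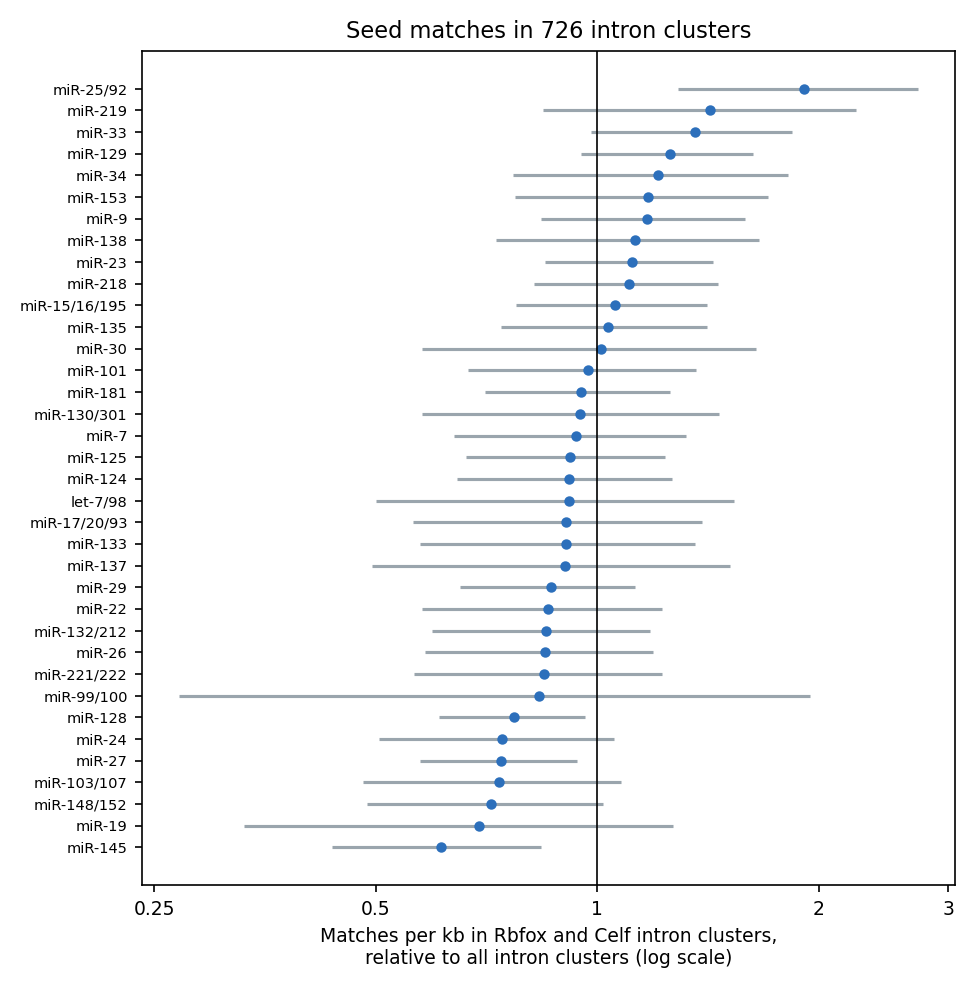
Matches per kb in the 726 intron clusters of the 9 genes divided by the value of all intron clusters (horizontal, log scale) for 36 miRNA families; lines are 95% exact Poisson intervals of the count, and 1 means the same level. The line of miR-25/92 lies to the right of 1, the lines of miR-145, miR-27 and miR-128 lie to the left, and the other 32 cross it.

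The words that the 2 protein families bind were counted in the clusters of their own genes. In introns, only 6-base seed columns that contain the words could be read. AGCATG (which contains the Rbfox word GCATG) was in 39 of 726 clusters, 5.37% (interval 3.95 to 7.26), against 5.56% of all intron clusters. The share was 5.67% in Rbfox1, 8.96% in Rbfox3 and 3.17% in Celf2. GCATG after C, G or T was not counted in introns, so these values do not give the share of clusters with GCATG. The GU-rich word GTGTGT was in 12.4% (10.2 to 15.0) against 9.78%, but at 3.40 matches per kb against 3.41. The excess in the share of clusters was thus not seen per length over the 9 genes together. By gene the matches per kb were 4.71 in Rbfox1, 3.61 in Rbfox2, 2.46 in Celf2, 1.73 in Rbfox3 and 1.59 in Celf4. Celf6 stood at 28.8 on 1 cluster, and Celf1, Celf3 and Celf5 at 0. TGTGTG, which overlaps GTGTGT in repeats, was in 13.5% against 12.7%. In the 35 3′ UTR clusters inside 1 exon, GCATG was in 3 (8.57%, 2.96 to 22.4), 2 of them in Celf2 and 1 in Celf1, against 15.8% of all such clusters. TGTGT was in 9 (25.7%, 14.2 to 42.1) against 28.9%. Only the sense strand was searched, and a match is not a binding site.

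Circular RNA identifiers were on 105 of the 790 sense clusters, 13.3% (interval 11.1 to 15.8), against 15.9% over the table. An identifier means that the cluster lies within the span of an annotated circle, not that the reads came from it. In coding sequence the share was 9 of 17 (52.9%, 31.0 to 73.8) against 26.7%: all 4 of Celf1, both of Rbfox2 and of Rbfox3 and 1 of Celf2 carried one. The 4 Celf1 clusters share the identifier mmu_circ_0010231. In introns it was 12.7% against 15.0%, and it differed between genes: 55 of 252 in Celf2 (21.8%, 17.2 to 27.3), 21 of 335 in Rbfox1 (6.27%, 4.14 to 9.39), 6 of 67 in Rbfox3, 8 of 14 in Rbfox2 and 1 of 47 in Celf4. The intervals of Celf2 and Rbfox1 do not overlap, but 1 identifier can lie on many clusters. In Celf2 mmu_circ_0010092 was on 22 intron clusters, and in Rbfox1 mmu_circ_0006392 was on 10. Such clusters are not independent, so these intervals do not test a difference between the genes. Celf2 carried 13 identifiers and Rbfox1 carried 8.

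Rbfox1 and Celf2 were set beside the genes most like them in numbers of intron and exonic clusters. Among 9962 genes, those nearest to Rbfox1 (335 intron and 3 exonic clusters) were Nrg3, a neuregulin, with 176 and 2, Csmd1 with 200 and 6, and Asic2, an ion channel, with 160 and 2. Nearest to Celf2 (252 and 11) were Ptprd, a receptor phosphatase, with 221 and 12, Nrxn3, a neurexin, with 241 and 8, and Dlg2, a synaptic scaffold, with 193 and 14. Distance was taken between log2 counts plus 1. Per 100 kb of intron these genes ranged from 9.83 in Ptprd to 16.04 in Nrg3, with Rbfox1 at 22.0 and Celf2 at 26.7. Rbfox1 and Celf2 have the highest intron counts of all genes with at least 100 kb of intron, so each gene set beside them had fewer. Those nearest to Celf2 also have more intron, 1599 to 2248 kb against 944 kb. The lower densities thus follow in part from the way these genes were chosen, and are a description only.

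The other regulators of neuronal splicing had a lower median of intron clusters per length. Of 35 listed, 22 had a 3′ UTR cluster, 24 a CDS cluster, 9 a 5′ UTR cluster and 26 an intron cluster. Over all 21924 protein-coding genes the shares were 21.5%, 26.9%, 3.29% and 28.0%. Genes with no RNA in forebrain are among the 21924, so the counts say little about the 35. The 10 of the 35 with at least 100 kb of intron had a median of 7.19 clusters per 100 kb, from 2.10 to 12.5. The median was 17.5 for the 5 Rbfox and Celf genes of that length, of which Rbfox2, at 6.37, lies within the range of the 10. Msi2 (Musashi 2) had the most intron clusters, 29, followed by Khdrbs3 with 19. Hnrnpf had the most 3′ UTR reads, 5730 in a single cluster, and Qk (quaking), an RNA-binding splicing factor, followed with 161 in 7.

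The table was also read for markers of cell types. All 6 listed markers of excitatory forebrain neurons had an exonic cluster, with 1076 reads in all, but so had 6 of 6 astrocyte markers, with 1862 reads. The same held for 4 of 5 oligodendrocyte, 2 of 5 interneuron, 2 of 5 microglia and 2 of 4 endothelial markers. Over all 21924 protein-coding genes, 35.7% had an exonic cluster, so counts of 2 of 5 and 2 of 4 say little about those cell types. Pvalb, Sst and Vip, which define interneuron types, and the microglia markers P2ry12, Aif1 and Tmem119 had none. What part other cell types had in the clusters of the Rbfox and Celf genes was not tested.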

How the data were processed

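The submitters' processing notes name BWA and the genome build mm10. No version of BWA is given in the sources used here, and neither is how clusters were called, from which libraries, with what use of the controls, or whether PCR duplicates were removed. Per the file headers, the deposited table gives a read count for each cluster, a whole number of at least 10 without normalization, and 1281 columns in which the authors counted seed matches. The planned comparison of groups by edgeR could not be made, since no column belongs to a library.

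The 9 genes and all lists were chosen with earlier results of these data known. Region lengths are unions over all GENCODE M21 transcripts (GRCm38, the same build as mm10). Density ranks used genes with at least 1 kb of 3′ UTR or CDS and 100 kb of intron. With the 1 kb minimum that was planned for introns as well, the pooled intron value was 3.34 clusters per 100 kb. A deposited seed value counts 6-base matches to miRNA bases 2 to 7 that overlap the cluster: recounting from exon sequence gave the same value in 266739 of 266739 cases. GCATG and TGTGT were read from exons only. In introns, 6-base columns that hold the word and a further base were used, so not every GCATG or TGTGT was counted there. RefSeq held 33 of the 36 families' mature sequences. Named were all 9 genes, clusters of 100 or more reads, the deepest cluster of each region, 3 families per gene, 3 nearest genes to Rbfox1 and Celf2, and 4 other regulators. The scripts were tested on simulated data: matches were counted right in 500 of 500 clusters, and 196 of 200 density ratios lay within their interval. Python 3.11.15, pandas 2.3.3, numpy 2.4.6 and scipy 1.17.1 were used. PCR reads without molecular identifiers are not independent molecules, so all intervals cover counting error only.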

Additional observations from a re-analysis of the deposited data

How the results depend on the processing

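With only clusters of 20 or more reads, 429 of the 804 clusters of the 9 genes remained and Celf6 had none; the intron density of Rbfox1 relative to all genes was then 6.55 times, against 5.83 times with all clusters. The intron share of the 9 genes was 95.7% when every overlap counted and 89.2% as a share of reads, against 91.9% by priority. The share of intron clusters with GTGTGT was 1.27 times that of all intron clusters, but matches per kb of cluster stood at 0.999 times. Of the 32 alternative values of the main results, these 5 moved beyond the interval of the value or, for counts, by over 1.5 times, and 27 did not; of the 125 for single genes, 23 did, 14 of them at the higher minimum, 5 with every overlap counted, 3 without each deepest cluster and 1 as a share of reads. Ratios near 1 changed sides: with 20 or more reads AGCATG stood at 1.07 times all intron clusters, against 0.966, and per kb TGTGTG stood at 0.982 times, against 1.06. With 20 or more reads the share with GTGTGT stood at 1.52 times and that with TGTGTG at 1.28 times, both within the intervals of the main values. The 3′ UTR densities of Rbfox3 and Celf6, 1.46 and 1.83 times all genes on 1 cluster each, were 0 at the higher minimum. Counting every overlap raised the intron share of Celf1 from 26.3% to 68.4%, since 6 of its 3′ UTR and 2 of its CDS clusters are also named as intron. No paired analysis was possible because the table has no column for a library. Leaving out replicates could not be done for the same reason. Counts of 1 to 10 clusters in a gene's exonic regions leave densities uncertain by several-fold.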
